A study of Rattus norvegicus with 14 samples.

Results

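The genes described here encode the proteins that fill, hold and empty the calcium store of vascular muscle, the sarcoplasmic reticulum. They are the calcium pumps Atp2a2 and Atp2a3, the pump inhibitor Pln, the luminal calcium buffer Casq2, the release channels Ryr2, Ryr3, Itpr1, Itpr2 and Itpr3, and the junctional protein Jph2. These 10 genes, of 14217 named on the array, were chosen by their role. Every probe set with the gene's symbol alone was taken, 20 of 31042 tested, and the one with the highest average signal stood for the gene.

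Transcripts were measured in thoracic aorta of Sprague-Dawley rats, with 1 Affymetrix array per sample. The samples fell into A-CRF, in which renal failure had been induced with adenine (8 samples), and Control (6 samples). The labels give no age, sex, adenine dose or duration and no further handling of the Control rats, and all tissue was kept in RNAlater before freezing. Whether every sample came from its own animal is not stated, so the p-values reflect variation among these samples, part of which may be technical. The series title names relaxation of the aorta and excitation-contraction coupling as the question.

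In resting smooth muscle the SERCA pumps move calcium from the cytosol into the sarcoplasmic reticulum, and phospholamban, the product of Pln, slows the pump until it is phosphorylated. Inside the store calcium is bound by calsequestrin and other luminal proteins. It leaves through inositol trisphosphate receptors, opened by contractile agonists, and through ryanodine receptors, whose local openings in arteries activate potassium channels at the cell membrane.

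The pump, its inhibitor and the luminal buffer are the genes on which the results below turn, and the 250 bases before the start site of each are shown. The sequences are those of RefSeq on rat build GRCr8, plus strand, 5' to 3', at chr12:39733269-39733518 for Atp2a2, chr20:33172244-33172493 for Pln and chr2:192214306-192214555 for Casq2. Capitals mark GC boxes (GGGCGG or its complement CCGCCC) in Atp2a2, a CCAAT box (CCAAT) in Pln and a MEF2 element in Casq2.
Atp2a2: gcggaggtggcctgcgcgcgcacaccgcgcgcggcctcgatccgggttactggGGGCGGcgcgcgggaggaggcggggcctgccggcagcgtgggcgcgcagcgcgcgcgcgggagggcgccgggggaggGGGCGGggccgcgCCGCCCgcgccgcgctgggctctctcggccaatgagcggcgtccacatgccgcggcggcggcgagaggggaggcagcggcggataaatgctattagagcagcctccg
Pln: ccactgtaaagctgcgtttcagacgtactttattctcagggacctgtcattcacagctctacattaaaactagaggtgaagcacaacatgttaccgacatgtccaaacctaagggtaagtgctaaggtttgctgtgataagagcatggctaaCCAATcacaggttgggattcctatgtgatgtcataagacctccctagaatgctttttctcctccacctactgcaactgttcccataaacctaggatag
Casq2: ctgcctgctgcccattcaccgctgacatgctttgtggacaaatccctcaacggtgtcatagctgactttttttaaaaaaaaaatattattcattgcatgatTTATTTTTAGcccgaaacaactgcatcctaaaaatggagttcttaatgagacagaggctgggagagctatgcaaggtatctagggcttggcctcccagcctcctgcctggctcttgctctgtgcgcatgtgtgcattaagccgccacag
The 3 GC boxes of Atp2a2 begin 197, 120 and 107 bases before the start, the CCAAT box of Pln 98 bases before it and the MEF2 element of Casq2 149 bases before it. Over the window from 250 bases before to 50 bases after the start, GC content was 79% for Atp2a2, 45% for Pln and 47.7% for Casq2. All 10 genes matched a RefSeq promoter, and Ryr3 matched more than 1. On either strand a GC box occurred in 6 of the 10 genes and in 33.1% of 33469 promoters, and a CCAAT box in 5 genes and 37.5% of promoters. An E-box (CANNTG) occurred in 8 genes and 72.1% of promoters, and the MEF2 element in 1 gene, Casq2, and 3.29% of promoters. A TATA box (TATAAA) was found in 0 of the 10 genes and 14.2% of promoters, and a CArG box in 0 genes and 1.64%. These matches describe letters in the window and were not tested for binding.

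The arrays correlated at 0.97 or more over all probe sets. A-CRF 1, A-CRF 4 and Control 1 stood apart in the difference between the 3' and 5' control probe sets of GAPDH, a measure of RNA integrity, at 1.90, 1.63 and 1.58 log2 units against 0.37 to 0.55 on the other arrays. The tissue label was checked with 10 smooth muscle markers, whose mean per array was 9.45 to 9.86 log2 units in A-CRF and 9.67 to 10.23 in Control. Of these markers 0 were higher and 1, the smooth muscle myosin Myh11, was lower at an adjusted p under 0.05 in limma. Over all genes 1.93% were higher and 1.06% lower. The log2 fold change was negative for 9 of the 10 smooth muscle markers, with a median of -0.20. Macrophage markers were higher for 8 of 9 genes, with list means of 7.39 to 7.83 in A-CRF and 6.94 to 7.13 in Control. In bulk tissue fewer cells of a type and less RNA per cell cannot be told apart.

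By their representing probe sets, 0 of the 10 passed an adjusted p of 0.05 in limma, against 2.99% of all genes, of which 1.93% were higher and 1.06% lower in A-CRF. At an unadjusted p under 0.05 there were 3 of 10, namely Pln, Casq2 and Atp2a2, against 18.6% of all genes. The exact rank-sum test also called 0 of the 10. Among the 20 probe sets 1 passed, a second probe set of Pln, against 2.05% of all probe sets, and 8 of the 20 had an unadjusted p under 0.05, against 14.4% of all probe sets. All 8 belong to Pln, Casq2 and Atp2a2. They are repeated readings of those 3 genes and not 8 separate members. The difference was positive for 5 genes and negative for 5. The median log2 fold change of the 10 genes was 0.00, as it was over all genes, and the median of its size was 0.10, against 0.03 over all genes. The lowest value in the table was 4.82. Averaged over the arrays, 8 of the 10 genes exceeded it by more than 1 log2 unit, while Ryr3 and Itpr3 lay within 1 unit of it, as did 42.7% of all genes. The 2 medians of size thus cover sets with unlike shares of dim genes and were not matched for signal.

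**Figure D1:**
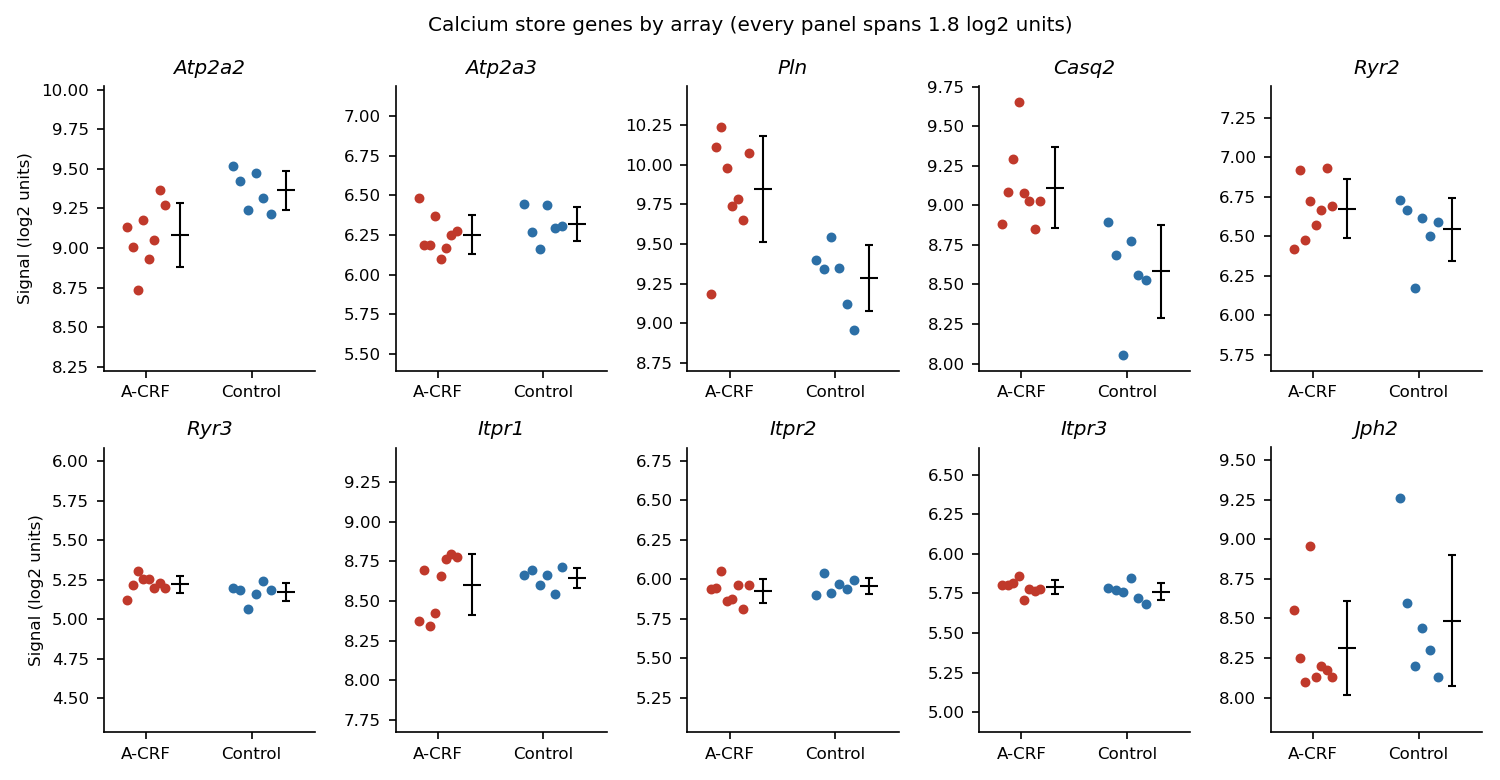
Log2 signal of the probe set that represents each of the 10 genes, 1 point per array, with A-CRF (8 arrays) left and Control (6 arrays) right in each panel; the black mark is the group mean and its bar the SD. Panels have different levels on the y axis but the same span; Pln and Casq2 lie mostly higher in A-CRF (7 and 6 of 8 arrays above all Control arrays), Atp2a2 mostly lower (6 of 8 below), and the other groups overlap widely.

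Atp2a2 encodes SERCA2, the main calcium pump of the store in arterial muscle. Its representing probe set, 1369065_a_at, ran from 8.73 through a median of 9.09 to 9.37 log2 units in A-CRF and from 9.21 through 9.37 to 9.51 in Control. On 6 of 8 A-CRF arrays the signal was below every Control array, and on 8 of 8 it was below the Control median, while A-CRF 7 and A-CRF 8 lay within the Control range. The means were 9.08 ± 0.20 in A-CRF and 9.36 ± 0.12 in Control (SD, n = 8 and 6). The log2 fold change was -0.28 ± 0.09 (SE, 95% interval -0.47 to -0.09), which is 1.22-fold lower in A-CRF and did not pass the adjustment (limma, adjusted p = 0.12).

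A further 2 probe sets of Atp2a2 with clear signal gave differences of like size. Probe set 1370426_a_at averaged 8.79 ± 0.16 in A-CRF and 9.09 ± 0.18 in Control (SD, n = 8 and 6), a log2 fold change of -0.31 ± 0.08 (SE, limma adjusted p = 0.078). Probe set 1398862_at averaged 7.86 ± 0.21 in A-CRF and 8.17 ± 0.17 in Control (SD, n = 8 and 6), a log2 fold change of -0.32 ± 0.10 (SE, limma adjusted p = 0.12). These 3 probe sets also deviated together within groups, with correlations of their residuals of 0.77 to 0.82 over 14 arrays. The other probe sets of the gene, 1391771_at and 1375164_at, lay near the lowest value of the table, at 5.54 and 5.25 in A-CRF and 5.55 and 5.26 in Control, with log2 fold changes of 0.00. The annotation used here does not say which splice form each probe set reads.

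The smooth muscle marker mean moved with Atp2a2, and with it as a covariate the log2 fold change of Atp2a2 was -0.17 (limma adjusted p = 0.35). Without A-CRF 1, A-CRF 4 and Control 1 it was -0.27 (limma adjusted p = 0.19). Their part in the difference beyond these values was not tested.

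Atp2a3 encodes SERCA3, the pump isoform better known from endothelium and blood cells. It ran from 6.10 to 6.48 in A-CRF, with a median of 6.22, and from 6.16 to 6.44 in Control, with a median of 6.30, so the groups overlapped almost fully. The log2 fold change was -0.07 ± 0.06 (SE, limma adjusted p = 0.72), and the second probe set lay near the lowest value with a log2 fold change of 0.00.

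Pln encodes phospholamban, the small membrane protein that lowers the calcium affinity of SERCA2. Its representing probe set, 1370157_at, ran from 9.18 through a median of 9.88 to 10.24 in A-CRF and from 8.95 through 9.34 to 9.54 in Control. On 7 of 8 A-CRF arrays it was above every Control array, and the exception was A-CRF 1, the array with the largest GAPDH difference. A-CRF 4, whose GAPDH difference of 1.63 was the next largest, was at 9.98 and so above every Control array. A link of the exception to RNA integrity was not tested. The means were 9.85 ± 0.34 in A-CRF and 9.28 ± 0.21 in Control (SD, n = 8 and 6). The log2 fold change was 0.56 ± 0.15 (SE, 95% interval 0.25 to 0.87), a ratio of 1.48, with an adjusted p of 0.064 in limma.

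The second probe set of Pln, 1388876_at, rose in A-CRF and was the only member probe set to pass. It ran from 9.04 through a median of 9.91 to 10.46 in A-CRF and from 8.90 through 9.17 to 9.32 in Control, and again only A-CRF 1 lay inside the Control range. The means were 9.90 ± 0.41 in A-CRF and 9.14 ± 0.17 in Control (SD, n = 8 and 6). The log2 fold change was 0.76 ± 0.17 (SE, 95% interval 0.40 to 1.11), 1.69-fold (limma, adjusted p = 0.032). Residuals of both probe sets correlated at 0.90 over 14 arrays. The remaining probe set, 1384689_at, lay near the lowest value at 5.60 in A-CRF and 5.51 in Control, with a log2 fold change of 0.09 ± 0.03 (SE, limma adjusted p = 0.14).

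Whether Pln passed depended on single arrays. Without A-CRF 1 the representing probe set had a log2 fold change of 0.66 and an adjusted p of 0.0082 in limma, and without A-CRF 1, A-CRF 4 and Control 1 it had 0.67 and 0.022. The call of the second probe set held on omission of Control 1 or of A-CRF 1, 3, 6 or 7, and was lost without any of the other 9 arrays, with log2 fold changes of 0.68 to 0.88 over all 14 omissions and adjusted p up to 0.080.

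Casq2 encodes calsequestrin 2, which binds calcium inside the store with high capacity and is best known from heart. Its representing probe set, 1368988_at, ran from 8.85 through a median of 9.05 to 9.65 in A-CRF and from 8.05 through 8.62 to 8.90 in Control. On 6 of 8 A-CRF arrays it was above every Control array, on 8 of 8 it was above the Control median, and A-CRF 1 and A-CRF 7 lay inside the Control range. The means were 9.11 ± 0.26 in A-CRF and 8.58 ± 0.29 in Control (SD, n = 8 and 6). The log2 fold change was 0.53 ± 0.14 (SE, 95% interval 0.24 to 0.82), a ratio of 1.44, with an adjusted p of 0.064 in limma.

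The second probe set of Casq2, 1387401_at, ran from 6.81 to 7.63 in A-CRF and from 6.69 to 7.30 in Control, with 7 of 8 A-CRF arrays above every Control array. Its log2 fold change was 0.46 ± 0.12 (SE, limma adjusted p = 0.075). Residuals of both probe sets correlated at 0.36 over 14 arrays, a looser agreement than for Pln or Atp2a2, and the array lowest in Control, Control 3, was the same on both. Without A-CRF 1 the representing probe set had a log2 fold change of 0.56 and an adjusted p of 0.049 in limma, and without A-CRF 1, A-CRF 4 and Control 1 it had 0.54 and 0.035.

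Because Casq2 and Pln are abundant in heart muscle, markers of cardiac muscle were read beside them. Of 10 measured cardiac markers 9 were within 1 unit of the table's lowest value, and their list mean was 5.44 to 5.51 in A-CRF and 5.47 to 5.56 in Control. The cardiac myosin Myh6 was the brightest, at 7.24 in A-CRF and 7.26 in Control, and 0 of the 10 passed in either direction. The macrophage marker mean did not overlap between the groups, so with it as a covariate group and score could not be told apart, and 0 probe sets of the array passed.

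**Figure D2:**
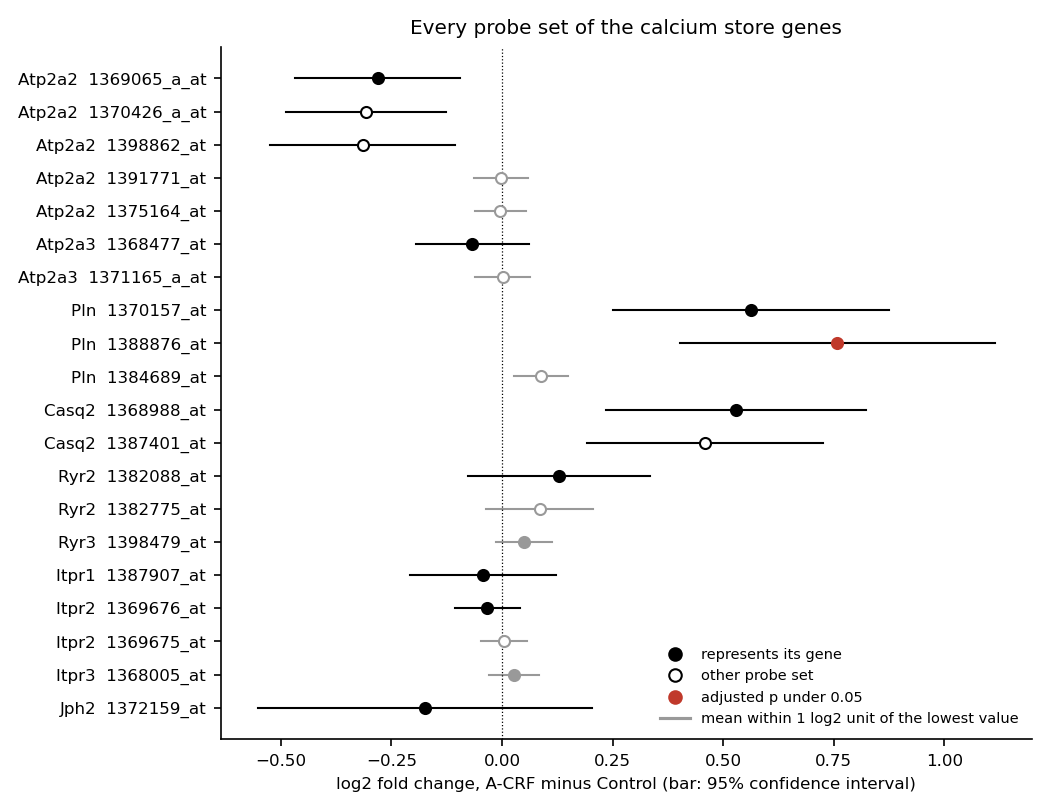
Log2 fold change of A-CRF minus Control for each of the 20 probe sets (points) with its 95% confidence interval (bars), grouped by gene; filled points represent their gene, the red point passed an adjusted p of 0.05, and grey marks probe sets whose mean is no more than 1 unit above the table's lowest value. The 3 bright probe sets of Atp2a2 lie between -0.32 and -0.28, both bright ones of Pln at 0.56 and 0.76 and those of Casq2 at 0.46 and 0.53, and grey ones lie near 0.

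The release channels showed smaller differences. Ryr2, the ryanodine receptor best known from heart, ran from 6.42 through a median of 6.68 to 6.93 in A-CRF and from 6.17 through 6.60 to 6.73 in Control, and the groups overlapped. Its log2 fold change was 0.13 ± 0.10 (SE, 95% interval -0.08 to 0.34, limma adjusted p = 0.63). Ryr3, another ryanodine receptor of smooth muscle, averaged 5.22 in A-CRF and 5.17 in Control, near the lowest value, so a difference may not be detectable at this signal.

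Itpr1 encodes the main inositol trisphosphate receptor of vascular muscle, the channel that agonists open. It ran from 8.34 through a median of 8.67 to 8.80 in A-CRF and from 8.54 through 8.66 to 8.71 in Control. The A-CRF arrays were the more spread, with A-CRF 1, A-CRF 3 and A-CRF 4 below every Control array and A-CRF 6, A-CRF 7 and A-CRF 8 above. The SD was 0.19 in A-CRF (n = 8) and 0.06 in Control (n = 6), and the log2 fold change was -0.04 ± 0.08 (SE, 95% interval -0.21 to 0.12, limma adjusted p = 0.90). A-CRF 6, A-CRF 7 and A-CRF 8 stood apart in a clock gene score, the mean signal of Dbp and similarly timed clock genes minus that of Npas2 and its partners. It was 1.05 to 1.17 on these arrays, against -0.58 to -0.10 on the other A-CRF arrays and 0.09 to 1.29 in Control. With that score as a covariate the log2 fold change of Itpr1 was 0.03 (limma adjusted p = 0.91). Of the low arrays, A-CRF 1 and A-CRF 4 have a GAPDH difference over 1. Without A-CRF 1, A-CRF 4 and Control 1 the log2 fold change of Itpr1 was 0.03 (limma adjusted p = 0.93). The cause of the spread was not tested. Itpr2 and Itpr3, the other receptors of this family, averaged 5.93 and 5.79 in A-CRF and 5.96 and 5.76 in Control, with log2 fold changes of -0.03 ± 0.03 and 0.03 ± 0.03 (SE, limma adjusted p = 0.78 and 0.75).

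Jph2 encodes junctophilin 2, which ties the store to the cell membrane. It ran from 8.10 through a median of 8.19 to 8.96 in A-CRF and from 8.13 through 8.37 to 9.26 in Control. The highest arrays of the groups, A-CRF 4 and Control 1, are among the 3 with a GAPDH difference over 1. The log2 fold change was -0.18 ± 0.18 (SE, 95% interval -0.55 to 0.20, limma adjusted p = 0.77), and it was -0.02 without Control 1. Without A-CRF 1, A-CRF 4 and Control 1 it was -0.17 (limma adjusted p = 0.27).

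Ratios of members within an array cancel whatever scales the whole array, and 8 pairs were compared by an exact two-sided permutation test over all 3003 assignments of the arrays, adjusted over the 8 pairs. Only the difference of a ratio between groups is read, since levels of separate probe sets are not on a common scale. The inhibitor relative to the pump, Pln minus Atp2a2, ran from 0.05 to 1.51 log2 units in A-CRF and from -0.26 to 0.30 in Control. On 6 of 8 A-CRF arrays it was above every Control array, while A-CRF 1 at 0.05 and A-CRF 7 at 0.28 fell below Control 3 at 0.30. The mean was 0.76 ± 0.45 in A-CRF and -0.08 ± 0.20 in Control (SD, n = 8 and 6). The ratio rose by 0.84 ± 0.20 log2 units (SE), a factor of 1.79 (exact permutation p = 0.0020, adjusted p = 0.0053). Adjusted p-values of ratios cover 8 pairs and those of single genes all probe sets, so they cannot be compared with each other. By the representing probe sets, unadjusted limma p-values were 0.0017 for Pln, 0.0017 for Casq2 and 0.0061 for Atp2a2. A call for a ratio is therefore not firmer evidence than the uncalled genes by its adjusted p alone. The paired genes were also chosen with earlier results of these data known.

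The ratio rose in every pairing of the bright probe sets of Pln and Atp2a2, of which there are 6. The difference ran from 0.84 to 1.07, with exact permutation p-values of 0.00067 to 0.0033, and in 1 pairing the groups did not overlap. It passed whichever of the 14 arrays was omitted, at 0.74 to 0.94, and was 0.95 without A-CRF 1, A-CRF 4 and Control 1 (exact permutation, adjusted p = 0.017).

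By the representing probe sets, the luminal buffer relative to the pump separated the groups fully. Casq2 minus Atp2a2 ran from -0.51 to 0.56 in A-CRF and from -1.19 to -0.62 in Control, so all 8 A-CRF arrays were above every Control array. The ratio rose by 0.81 ± 0.17 log2 units (SE), a factor of 1.75 (exact permutation p = 0.0010, adjusted p = 0.0040). It passed whichever of the 14 arrays was omitted, at 0.73 to 0.89. The second Casq2 probe set was not paired on its own with Atp2a2. On that probe set A-CRF 1, at 6.81, lay inside the Control range of 6.69 to 7.30.

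Ryr2 minus Atp2a2 was higher on 7 of 8 A-CRF arrays than on any Control array and rose by 0.41 ± 0.09 (SE, exact permutation adjusted p = 0.0040). The ratio of Itpr1 to Atp2a2 rose by 0.24 ± 0.09 (SE, exact permutation adjusted p = 0.049) and that of Atp2a3 to Atp2a2 by 0.21 ± 0.08 (SE, exact permutation adjusted p = 0.042). Those calls were narrow. The call for Itpr1 to Atp2a2 held only when A-CRF 1, A-CRF 4 or Control 6 was the array left out and was lost in 11 of 14 such fits, at 0.21 to 0.28 over all of them. The call for Atp2a3 to Atp2a2 held only on omission of Control 6 or of A-CRF 4, 7 or 8 and was lost in 10 of 14, at 0.17 to 0.25. All 5 ratios that passed share Atp2a2 and are not independent of each other.

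The 3 pairs without Atp2a2 did not pass. Pln minus Casq2 differed by 0.03 ± 0.18 (SE, exact permutation adjusted p = 0.86), Ryr2 minus Itpr1 by 0.17 ± 0.09 (adjusted p = 0.090) and Jph2 minus Ryr2 by -0.30 ± 0.19 (adjusted p = 0.15). Without A-CRF 1, A-CRF 4 and Control 1 the difference for Jph2 minus Ryr2 was -0.37 (exact permutation adjusted p = 0.017). With the smooth muscle marker mean as a covariate the differences for Pln and Casq2 over Atp2a2 were 0.75 and 0.83 (permutation adjusted p = 0.031 and 0.019). There the group labels were permuted with each marker mean left on its array, and the regression t of the group was compared. That is exact only if group and marker mean are unrelated, so these p-values are approximate.

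**Figure D3:**
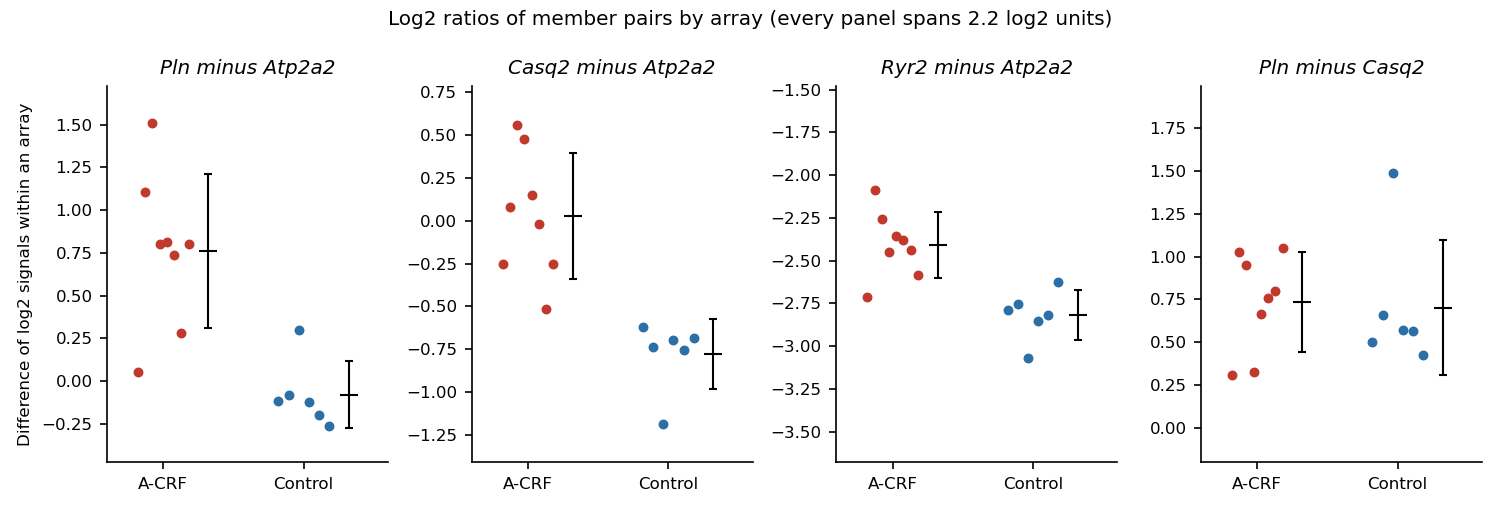
Difference of log2 signals within each array for 4 pairs of genes, 1 point per array, with A-CRF left and Control right; the black mark is the group mean and its bar the SD. By the representing probe sets shown, Casq2 minus Atp2a2 does not overlap between the groups. Pln minus Atp2a2 overlaps on 2 A-CRF arrays and Control 3, and Pln minus Casq2 overlaps throughout.

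Correlations between members within groups were limited by the number of arrays. Of 10 relations tested, 5 pairs in each group, 0 passed after Benjamini-Hochberg adjustment. The closest was Casq2 with Atp2a2 in Control, with a Pearson r of 0.81 (exact permutation p = 0.022, adjusted p = 0.22, n = 6) and a Spearman rho of 0.94 (exact permutation p = 0.017, adjusted p = 0.17). Without the 2 of these 6 arrays farthest from the median of Casq2, r was 0.95, over too few arrays to show stability. In A-CRF the same pair had an r of -0.29 (exact permutation p = 0.48, adjusted p = 0.68, n = 8) and a rho of -0.57 (exact permutation p = 0.15), and the difference between the groups was not tested. Pln with Casq2 had an r of 0.55 in A-CRF (exact permutation p = 0.16, adjusted p = 0.56, n = 8), a rho of 0.69 (p = 0.069) and an r of 0.39 without the 2 arrays farthest from the median of Pln. Such omissions can move r far, as for Pln with Atp2a2 in Control, from 0.40 to -0.84.

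Among 8103 other genes with clear signal, the deviations from group means most like those of Pln over 14 arrays were those of Akip1 (r = 0.84), Ptpn2 (0.82), Flrt2 (0.81) and the neurotrophin Bdnf (0.79). For Casq2 they were those of the proprotein convertase Pcsk5 (0.94), Hrc (0.92), a histidine-rich calcium-binding protein of the same store lumen, Sdc1 (0.90) and Txndc5 (0.87). For Atp2a2 they were those of the mitochondrial transhydrogenase Nnt (0.92), Cap2 (0.89), Cops8 (0.88) and Czib (0.87). These correlations were picked as the highest of 8103, over arrays that differ in RNA quality and tissue marker means, and carry no test.

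Proteins that work with the store were read from 5 lists with 65 distinct genes measured, of which 3 were higher and 3 lower at an adjusted p under 0.05 in limma, against 1.93% of all genes higher and 1.06% lower. The lists were counted only, and none was tested as a list. Among 17 pump partners 0 were higher and 1 was lower (1.93% and 1.06% of all genes), with a median log2 fold change of -0.01. That gene was Hspb6, the small heat shock protein Hsp20, which ran from 6.82 to 7.65 in A-CRF and from 7.64 to 8.34 in Control, with 7 of 8 A-CRF arrays below every Control array. It fell by 0.63 ± 0.13 log2 units (SE, limma adjusted p = 0.026), and the call was lost without A-CRF 5, Control 3 or Control 4, at -0.60, -0.60 and -0.63. It was -0.42 with the smooth muscle marker mean as a covariate (limma adjusted p = 0.071), and the call was also lost with the fat and clock scores (0.072 and 0.094), with the macrophage score and by the rank-sum test (0.064).

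Of 14 release channel partners 0 passed in either direction, against 2.99% of all genes, and 4 had an unadjusted p under 0.05, against 18.6% of all genes. The median was 0.02. The largest differences among those with clear signal were those of Casq1, the skeletal muscle calsequestrin, at 0.36 ± 0.12 (SE, limma adjusted p = 0.16), and Hrc at 0.32 ± 0.11 (SE, limma adjusted p = 0.16). Both had their signal mostly above Control, on 6 of 8 A-CRF arrays for Casq1 and on 7 of 8 for Hrc.

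Of 16 partners of the inositol trisphosphate receptors 0 were higher and 1 was lower (1.93% and 1.06% of all genes), with a median of 0.01. Plcb1, a phospholipase that makes inositol trisphosphate, ran from 6.01 to 6.45 in A-CRF and from 6.59 to 6.82 in Control, and the groups did not overlap. It fell by 0.48 ± 0.07 log2 units (SE, limma adjusted p = 0.0051) and passed whichever of the 14 arrays was omitted. Of the other alternatives, the macrophage score alone lost the call, at -0.11.

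Of 15 luminal and counter-ion proteins 3 were higher and 0 lower (1.93% and 1.06% of all genes), with 14 positive and a median of 0.18 against 0.00 over all genes. Nucb2, a nucleobindin, which binds calcium, ran from 7.97 to 9.07 in A-CRF and from 7.74 to 7.98 in Control and rose by 0.65 ± 0.13 (SE, limma adjusted p = 0.026). Rcn1, a calcium-binding reticulocalbin of the store lumen, ran from 8.23 to 8.66 in A-CRF and from 7.94 to 8.24 in Control and rose by 0.38 ± 0.07 (SE, limma adjusted p = 0.014). Pdia3, a disulphide isomerase that folds glycoproteins, ran from 9.88 to 10.17 in A-CRF and from 9.80 to 9.90 in Control and rose by 0.21 ± 0.04 (SE, limma adjusted p = 0.015). On 7 of 8 A-CRF arrays each was above every Control array. The calls of Rcn1 and Pdia3 held whichever of the 14 arrays was omitted, while that of Nucb2 was lost on omission of A-CRF 5 or of Control 1, 3, 5 or 6, at 0.63 to 0.65. The call of Pdia3 was also lost with trend and robust options (limma adjusted p = 0.057), with the smooth muscle and clock scores (0.052 and 0.072) and by the rank-sum test (0.087). That of Rcn1 was lost with the clock score (limma adjusted p = 0.061) and by the rank-sum test (0.064), and that of Nucb2 with the smooth muscle, fat and clock scores (0.081, 0.068 and 0.11) and by the rank-sum test (0.064). With all probe sets of a gene averaged, the rise was smaller for Rcn1, at 0.20, and Pdia3, at 0.12 (limma adjusted p = 0.023 and 0.041). The size of those 2 differences thus depends on the probe set. The mean of the macrophage markers was also higher on every A-CRF array than on any Control array. With it as a covariate none of the 3 genes passed, but group and score could not be told apart there.

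Of 6 store sensors and their membrane channels 0 were higher and 1 was lower (1.93% and 1.06% of all genes), with 5 of 6 negative and a median of -0.11. Stim1, the sensor that detects an emptied store, ran from 6.70 to 7.09 in A-CRF and from 7.04 to 7.20 in Control. It fell by 0.22 ± 0.05 (SE, limma adjusted p = 0.036), with 7 of 8 A-CRF arrays below every Control array. Its call held only on omission of Control 2 or of A-CRF 1, 2, 4 or 7 and was lost without any of the other 9 arrays, at -0.25 to -0.20 over all 14 omissions. It was also lost with the smooth muscle, fat and clock scores (limma adjusted p = 0.081, 0.10 and 0.15), with the macrophage score and by the rank-sum test (0.087). With all probe sets of Stim1 averaged, the log2 fold change was smaller, at -0.15 (limma adjusted p = 0.027).

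**Figure D4:**
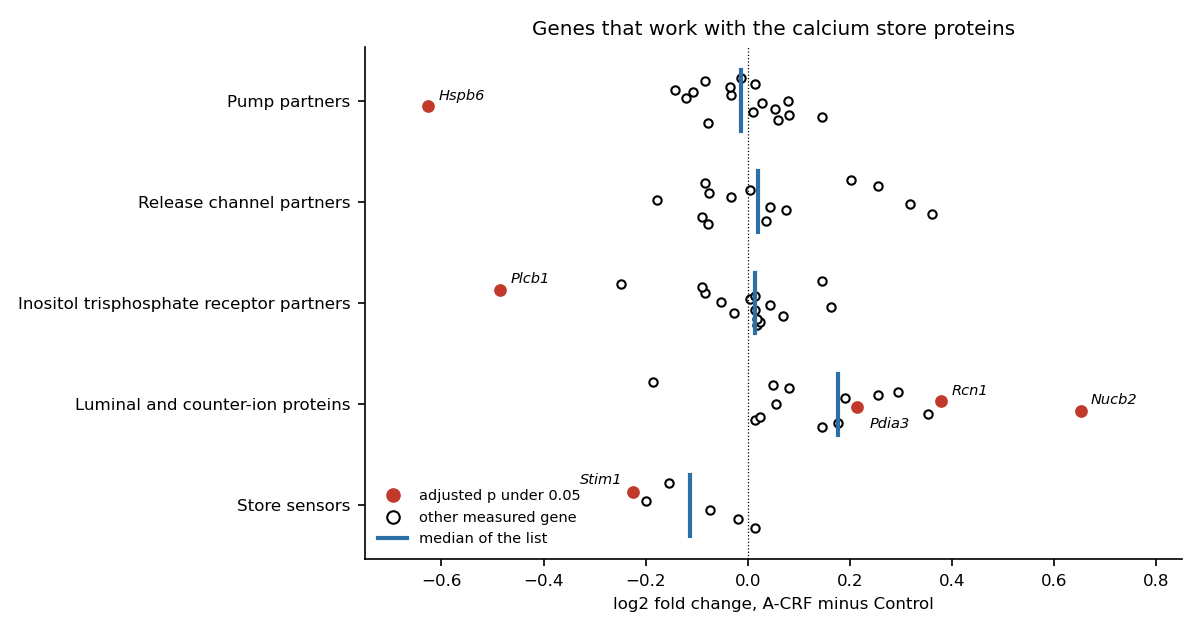
Log2 fold change of A-CRF minus Control for each measured gene of the 5 lists of partner genes (points), with the list's median as a blue bar; red points passed an adjusted p of 0.05. Hspb6, Plcb1 and Stim1 are the red points below 0, and Pdia3, Rcn1 and Nucb2 those above it, all in the luminal and counter-ion list.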

How the data were processed

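Transcripts of thoracic aorta were measured on 14 1-colour Affymetrix rat arrays, 8 A-CRF and 6 Control, grouped by the treatment label. The authors deposited 1 value per array for every probe set, read here as log2 values. The base was inferred from their range, 4.82 to 12.64, so each fold change holds only for that base. Probe sets were summarised with PLIER, per the submitters' processing notes, and background correction, normalization between arrays and offset were not given in the sources used here. An offset would make differences of dim genes smaller. Of 31099 probe sets 57 controls were left out, and 20826 of the rest had 1 gene symbol. No normalization or filter was added. For arrays no depth exists, and their number limits the precision.

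Groups were compared with limma 3.58.1 (R 4.3.3; lmFit and eBayes, two-sided, 12 residual degrees of freedom), with Benjamini-Hochberg adjustment over all 31042 probe sets. Ratios and correlations within groups were tested by exact permutation (Python 3.11.15, numpy 2.4.6, scipy 1.17.1), which is only approximate for ratios with a covariate. Scripts were tested on simulated data. The members and all lists were chosen with earlier results of these data known. Named were the 10 members, every partner gene past the threshold, otherwise the 2 largest differences of a list among genes over 1 log2 unit above the lowest value, and the 4 genes most like Pln, Casq2 and Atp2a2.

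Alternatives were an offset of 16, median centring, quantile normalization, array weights, eBayes with trend and robust options, a filter at the 40th percentile and an exact rank-sum test. Others were averaging the probe sets of a gene, dropping those that can match several transcripts, 7 covariates (4 tissue marker scores, the GAPDH difference, spike-ins and clock genes), leaving out the 3 arrays with a GAPDH difference over 1, and leaving out each array. For ratios, medians replaced means, and every pairing of bright probe sets of Pln and Atp2a2 was added after seeing the data. Promoter sequences came from RefSeq (GRCr8), and the array annotation names no build for its probe sets. Some listed partner genes were not analysed here.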

Additional observations from a re-analysis of the deposited data

Results flagged for a closer look

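Of 56 sets of values, 6 held 1 array that lay far from the rest of its group, where chance flags about 1 in 20. The sets were those of the member probe sets and of the ratios in each group. Ratios reuse the member values, so the flags are not independent and cannot be set against that share. A-CRF 1 was the array in both cases within A-CRF. There the second Pln probe set was at 9.04 log2 units, against 9.80 to 10.46 on the other A-CRF arrays, and the second Casq2 probe set was at 6.81, against 7.39 to 7.63. A-CRF 1 also had the largest GAPDH difference. A-CRF 4, also over 1 in that difference, was not flagged, at 10.04 and 7.40 on those probe sets. A link of the flags to RNA integrity was not tested.

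Control 3 stood apart in 3 ratios. Casq2 minus Atp2a2 was -1.19 there, against -0.76 to -0.62 on the other Control arrays. Pln minus Atp2a2 was 0.30, against -0.26 to -0.08, and Pln minus Casq2 was 1.49, against 0.43 to 0.66. Control 1 had the remaining value, with the Atp2a2 probe set 1398862_at at 8.50, against 8.06 to 8.18 on the other Control arrays.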

How the results depend on the processing

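No paired analysis was run, since the samples form 2 unpaired groups and the labels link no A-CRF sample to a Control sample. Without 1 array at a time, the log2 fold change was 0.50 to 0.66 for Pln and 0.42 to 0.59 for Casq2 (both passed only without A-CRF 1), and 0.68 to 0.88 for the second Pln probe set. The differences were 0.21 to 0.28 for Itpr1 minus Atp2a2, 0.17 to 0.25 for Atp2a3 minus Atp2a2 and -0.022 to 0.19 for Pln minus Casq2. Counts were 0 to 2 store genes, 3 to 7 partner genes (3 without A-CRF 5 or Control 3) and 307 to 979 probe sets. The probe set count was 979 without A-CRF 1, 416 without A-CRF 3, 352 without A-CRF 5, and 420, 345, 307 and 365 without Control 2, 4, 5 and 6. Pln and Casq2 both passed, giving 2 store genes, with low probe sets left out (0.56 and 0.53), trend and robust options (0.56 and 0.53), array weights (0.62 and 0.47), mean probe sets (0.47 and 0.49), the cardiac score (0.59 and 0.60) and the 3 arrays left out (0.67 and 0.54). Pln alone passed with the GAPDH covariate (0.57) and Casq2 alone with spike-ins (0.53), 1 store gene each. The second Pln probe set lost its call with the smooth muscle (0.76), fat (0.66), macrophage (0.17) and clock (0.79) scores and by rank-sum (0.74). With the macrophage score, whose groups do not overlap, 0 probe sets and 0 partner genes passed, the signs of Casq2 (-0.15), Ryr3 (-0.084), Itpr1 (0.29), Itpr3 (-0.055) and Nucb2 (-0.13) turned, and so did Casq2 minus Atp2a2 (-0.12), Atp2a3 minus Atp2a2 (-0.11) and Ryr2 minus Itpr1 (-0.26), while Pln, Ryr2 and Itpr1 minus Atp2a2 (0.16, 0.061 and 0.32) did not pass. The uncalled Itpr1 also turned with array weights (0.0095), the clock score (0.033), the 3 arrays left out (0.029) and rank-sum (0.012), Jph2 with the smooth muscle score (0.17), and Pln minus Casq2 with the smooth muscle (-0.081) and cardiac (-0.0097) scores and mean probe sets (-0.024). Itpr1 minus Atp2a2 was not past the threshold with the smooth muscle (0.15), cardiac (0.23), fat (0.25) and clock (0.25) scores, mean probe sets (0.14), multi-transcript probe sets dropped (0.27) and medians (0.31). Atp2a3 minus Atp2a2 was not with the smooth muscle (0.16) and clock (0.12) scores, the 3 arrays left out (0.17) and medians (0.23). Ryr2 minus Itpr1 passed with the smooth muscle (0.25) and cardiac (0.21) scores, and Jph2 minus Ryr2 with the GAPDH covariate (-0.35) and the 3 arrays left out (-0.37). All probe sets past the threshold numbered 1457 with array weights, 355, 1271, 275 and 149 with the smooth muscle, cardiac, fat and clock scores, 1041 with the GAPDH covariate and 1014 with spike-ins. Partner genes numbered 10, 3, 1 and 1 with array weights, the fat and clock scores and rank-sum. The cause of these shifts was not tested. Pln minus Atp2a2 kept its direction and passed in all settings other than the macrophage score. Trend and robust options, rank-sum and the percentile filter leave the ratios as they are and were not run on them, and Ryr3 had no value under that filter.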

Other observations

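Other cell types the tissue could hold were read from their markers beside the store genes. Of 7 endothelial, 4 platelet, 6 T and B cell, 5 white adipocyte, 6 brown adipocyte, 5 fibroblast, 3 Schwann cell and 3 mesothelial markers measured, 0 passed an adjusted p of 0.05 in limma, and 1 each of the endothelial, platelet and Schwann cell markers had an unadjusted p under 0.05. Of 10 skeletal muscle markers 1, the creatine kinase Ckm, was lower, against 1.06% of all genes, by 0.41 log2 units (limma adjusted p = 0.023). Its mean was only 1.04 above the lowest value. The brighter Acta1 of that list went the other way, at 0.43 (limma adjusted p = 0.30). The list held 5 positive and 5 negative genes, with a median of 0.00 and list means of 5.92 to 6.09 in A-CRF and 5.98 to 6.09 in Control. Brown adipocyte markers had a median log2 fold change of -0.52, with list means of 5.75 to 7.37 in A-CRF and 6.28 to 7.52 in Control, and white adipocyte markers one of -0.21, with 6.58 to 7.86 in A-CRF and 7.17 to 7.80 in Control. Of 9 clock genes 1 was higher, against 1.93% of all genes.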
